A study of Homo sapiens with 6 samples.

Results

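Chromosome 19 carries a large share of the human zinc finger genes, and 209 of the 37879 genes on the array were numbered zinc finger genes (ZNF followed by digits only) that the array annotation places there. Another 229 such genes lie on other chromosomes and 15 have no chromosome in the annotation. The rule for the 209 genes used name and chromosome and no measured value, but it was set with earlier results of these data known. Their levels were measured in total RNA from HEK293T cells, a line of human embryonic kidney origin that carries the SV40 large T antigen. The cells of all 6 samples were arrested in prometaphase with nocodazole, a drug that blocks spindle assembly, at 50 ng/ml for 15 h per the labels, while the methods of the study state a longer exposure. The 3 control samples had received an empty vector and the 3 Stau1 samples a plasmid coding for Stau155-FLAG, the tagged short isoform of the RNA-binding protein Staufen1. Nothing in the labels says whether replicates were separate cultures, so p-values measure the spread between these samples, which may be technical. Transfected cells still held their own Staufen1, and the share of cells that took up the plasmid was not measured. In total RNA of a culture, fewer cells with a transcript and less of it per cell cannot be told apart.

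Most of these genes encode C2H2 zinc finger proteins, in which each finger folds around a zinc ion and contacts a few bases of DNA. Many also carry a Krüppel-associated box (KRAB), which recruits the corepressor TRIM28 and, through it, histone methyltransferases, deacetylases and heterochromatin proteins. The genes arose by tandem duplication, so that they stand in clusters of related copies, and several silence retrotransposons. In the array's own Gene Ontology annotation, 205 of the 209 genes (98.1%) were linked to zinc ion binding, against 5.54% of all genes on the array. Regulation of transcription was given for 199 (95.2%, against 4.82% of all genes) and a place in the nucleus for 202 (96.7%, against 12.1%).

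The position of each gene relative to its neighbours was taken from RefSeq (GRCh38.p14), where 205 genes matched by symbol and 4 by an older symbol. RefSeq gives 204 of them as protein-coding and 5 as transcribed pseudogenes. A cluster was defined as at least 5 of the genes with at most 5 other protein-coding genes between neighbours. By this definition 180 genes fell into 10 clusters, each called here by its first and last gene, and 29 lay outside. The clusters with the most genes were ZNF264 to ZNF446 with 39, ZNF577 to ZNF331 with 31 and ZNF101 to ZNF254 with 25.

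Many of these genes share stretches of promoter sequence. RefSeq windows from 250 bases before to 50 bases after the annotated start were at hand for 181 of the 209 genes. Words of 10 bases were counted on the gene's strand of these windows. Of the words held by a set share of the genes, the word most concentrated in them relative to all genes was picked. The search was repeated among genes without the words already picked, to give 3 words, whose holders were then counted on both strands. The words were picked by their contrast with all genes, after the counts were seen. That contrast is thus built in, and the shares are shown as a description. Word 1, TCCAATCAGG, was found in 35 genes (19.3%), against 12 of 168 ZNF-numbered genes on other chromosomes (7.14%), 14 of 1329 other chromosome 19 genes (1.05%) and 117 of all 27305 genes with a window (0.428%). It holds the letters CCAAT, the core of the CCAAT box of many promoters. In order along the chromosome, its 35 holders lay between ZNF556 and ZNF254, 20 in the ZNF101 to ZNF254 cluster, 12 in ZNF653 to ZNF791 and 3 outside clusters. The stretch from the first to the last holder took in 59 of the genes with a window. The other 122, beyond it, lack the word by this definition. The following 60-base stretches of the gene's own strand, in GRCh38.p14, show word 1 in capitals in 7 holders, chosen to show how far its flanks are alike within and beyond a cluster.
ZNF85 (chr19:20923173-20923232, plus strand): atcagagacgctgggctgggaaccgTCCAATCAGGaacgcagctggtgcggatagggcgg
ZNF430 (chr19:21020574-21020633, plus strand): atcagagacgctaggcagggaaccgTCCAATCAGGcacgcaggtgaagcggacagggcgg
ZNF431 (chr19:21141956-21142015, plus strand): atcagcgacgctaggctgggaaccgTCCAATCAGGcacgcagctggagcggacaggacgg
ZNF91 (chr19:23395496-23395555, minus strand): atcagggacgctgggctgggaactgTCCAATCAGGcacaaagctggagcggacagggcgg
ZNF682 (chr19:20039524-20039583, minus strand): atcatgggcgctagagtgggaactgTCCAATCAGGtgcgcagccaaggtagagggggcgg
ZNF14 (chr19:19733132-19733191, minus strand): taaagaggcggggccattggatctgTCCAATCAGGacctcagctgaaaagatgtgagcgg
ZNF77 (chr19:2945133-2945192, minus strand): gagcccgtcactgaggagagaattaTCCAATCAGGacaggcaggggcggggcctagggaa

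The bases around word 1 were compared with those of ZNF91. Of the 50 flanking bases, 43 were the same in ZNF85, 42 in ZNF430 and 44 in ZNF431, 33 in ZNF682, 26 in ZNF14 and 19 in ZNF77. The median was 33 over 19 other holders of the ZNF101 to ZNF254 cluster with both flanks whole (12 to 45) and 16 over 11 of ZNF653 to ZNF791 (14 to 23). Where a gene held the word more than once, only the copy furthest upstream was compared. Among the genes compared, this was so in ZNF77, ZNF93, ZNF626, ZNF43, ZNF208 and ZNF675. Their counts may thus miss a copy with flanks closer to those of ZNF91. The middle of the word lay 53 bases upstream of the start in the median, and 33 of 41 matches on the gene's strand fell from 30 to 110 bases upstream. Word 2, ACTACATTAC, was found in 11 genes (6.08%, against 0.0732% of all genes), 10 of them in the ZNF264 to ZNF446 cluster at the other end of the chromosome, at a median of 96 bases upstream. It is shown in capitals in 3 members of that cluster.
ZNF416 (chr19:57578975-57579034, minus strand): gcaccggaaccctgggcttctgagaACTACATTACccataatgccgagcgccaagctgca
ZNF530 (chr19:57599765-57599824, plus strand): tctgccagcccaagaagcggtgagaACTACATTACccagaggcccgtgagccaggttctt
ZNF587 (chr19:57849717-57849776, plus strand): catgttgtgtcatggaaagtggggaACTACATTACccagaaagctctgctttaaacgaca

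Word 3, GGGACTTCCG, was found in 16 genes (8.84%, against 0.425% of all genes), 15 of them in the same ZNF264 to ZNF446 cluster and nearer the start, at a median of 15.5 bases upstream. It is shown in capitals in ZNF460, the gene with the lowest unadjusted p between the groups.
ZNF460 (chr19:57280409-57280468, plus strand): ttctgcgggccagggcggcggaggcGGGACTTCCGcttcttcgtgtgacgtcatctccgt

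Together, 59 of the 181 genes held at least 1 of the 3 words. Tandem copies share their promoters by descent, so these counts describe sequence in common and are not independent occurrences. A match is a string of letters, and no binding was measured here.

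**Figure D1:**
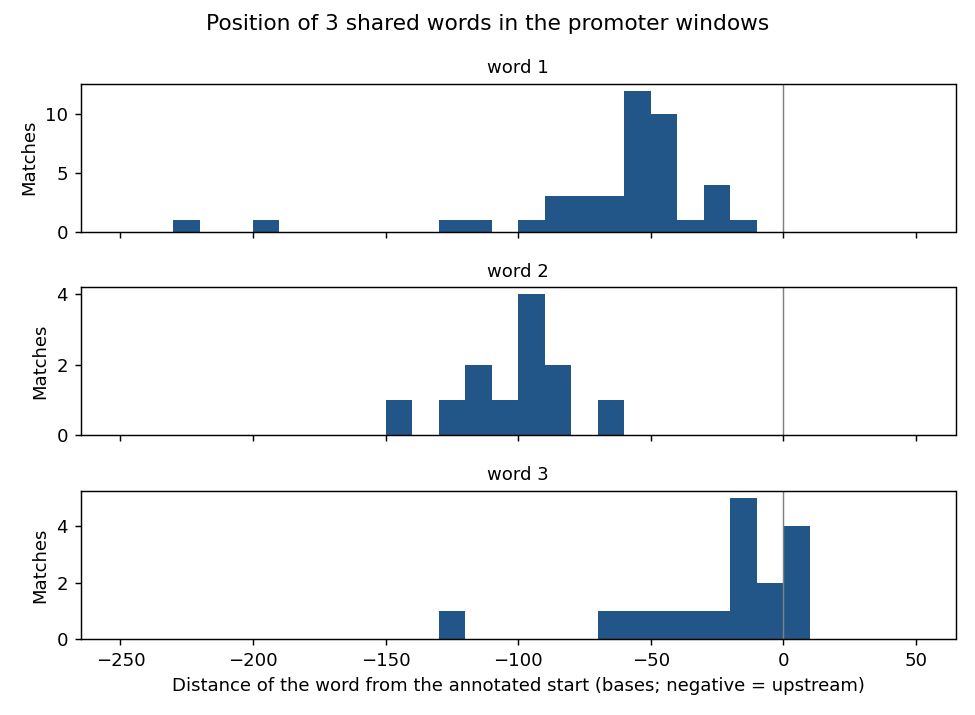
Histograms of the distance in bases from the annotated start to the middle of each shared word (x axis, negative values upstream) against the number of matches per 10 bases (y axis), for words 1, 2 and 3 in the promoter windows of 181 genes. Word 1 gathers around its median of 53 bases upstream, word 2 around 96 and word 3 around 15.5.

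The arrays were Illumina HumanWG-6 v3 BeadChips, and each gene had 1 intensity per array, averaged over its probes. Over the 122 genes compared further on, the standard error over beads had a median of 4.58% of the intensity. Between 12730 and 13469 of the 37879 genes per array were detected, a detection p under 0.05 against the negative control beads of that array. Pearson's r between arrays over the 13285 genes detected on at least 3 arrays was 0.987 to 0.996, and the control arrays were less alike (0.987 to 0.992) than the Stau1 arrays (0.994 to 0.996). STAU1 itself had intensities of 1890, 2526 and 3368 on control replicates 1 to 3 and of 2577, 3236 and 3153 on Stau1 replicates 1 to 3. The groups overlapped, and the fitted difference was 0.15 on the log2 scale (SE 0.09, limma adjusted p = 0.999). Whether the probes of STAU1 lie within the sequence that the plasmid carries was not examined, so the row does not check the labels. All 6 mitotic genes listed (CCNB1, CDC20, PLK1, AURKA, BUB1, CENPE) were detected on all 6 arrays. Of the 6 genes listed for kidney-derived HEK293T cells with their neuronal features, NEFL, NEFM and INA were detected on 6 arrays, LHX1 on 4, PAX2 on 1 and EYA1 on none. Of 6 genes of other cell types, PTPRC, CD3E and ALB were detected on none and MYH7 on 1, but INS and PECAM1 on all 6. Their part in the results was not tested.

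Many of the zinc finger genes were detected, and many were not. A detection p under 0.05 on at least 3 arrays was reached by 122 of the 209 genes (58.4%), against a background of 35.1% of all genes on the array. The share was 73.4% (168 of 229) for ZNF-numbered genes on other chromosomes and 47.5% (655 of 1380) for the other genes of chromosome 19. These are counts over different genes and carry no test. On all 6 arrays 93 genes were detected (44.5%, against 28.8% of all genes), and on none 67 (32.1%, against 57.9%). The other 29 that met the rule were 9 on 3 arrays, 11 on 4 and 9 on 5. No gene was detected on all 3 arrays of a group and on none of the other. All 5 pseudogenes were among the 87 that did not pass. The rule was met by 91 of 152 genes measured with 1 probe and by 31 of 57 with several, whose deposited detection p combines the probes. Related copies may also share hybridization signal, and probe sequences were not examined.

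The share of genes detected ran from 36% to 100% across the clusters. All 5 genes of the ZNF302 to ZNF792 cluster, 8 of 10 in ZNF317 to ZNF846 and 28 of 39 in ZNF264 to ZNF446 (71.8%) were detected. In ZNF101 to ZNF254 only 9 of 25 (36%) were, and 12 of its genes were detected on no array. The other large clusters lay between, with 10 of 21 in ZNF653 to ZNF791, 11 of 21 in ZNF565 to ZNF573, 17 of 31 in ZNF577 to ZNF331 and 10 of 16 in ZNF283 to ZNF180. Of the holders of word 1, 14 of 35 (40%) were detected, against 95 of 146 (65.1%) of the genes with a window and no word 1. By cluster, 4 of 12 holders and 6 of 8 other genes with a window were detected in ZNF653 to ZNF791, and 8 of 20 and 1 of 2 in ZNF101 to ZNF254. Of the holders of word 3, 12 of 16 (75%) were detected, against 97 of 165 (58.8%) of the genes with a window and no word 3. Within ZNF264 to ZNF446, 11 of 15 holders of word 3 and 14 of 21 other genes with a window were detected. Of the holders of word 2, 7 of 11 (63.6%) were detected, against 102 of 170 (60%) without it. The median GC content of the windows was 61% for detected and 59.2% for undetected genes.

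**Figure D2:**
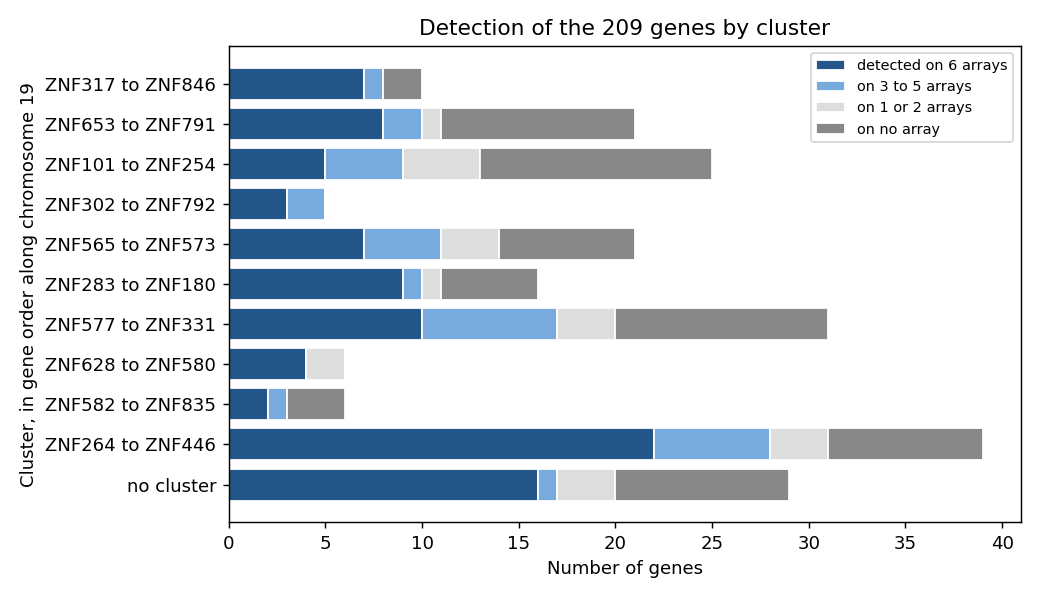
Number of genes (x axis) in each cluster in chromosomal order and outside clusters (y axis), coloured by how many of the 6 arrays detected them. The ZNF101 to ZNF254 cluster has the most genes detected on no array (12 of 25), and the ZNF264 to ZNF446 cluster the most detected on 6 arrays (22 of 39).

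The genes at the edge of the rule show what it separates. Of those detected on exactly 3 arrays, ZNF121, ZNF442, ZNF530 and ZNF555 were detected on 2 control arrays and 1 Stau1 array, and ZNF527 on 1 control and 2 Stau1 arrays. Their intensities ran from 81.7 (ZNF442, Stau1 replicate 1) to 139.3 (ZNF555, control replicate 3). Of those detected on exactly 2 arrays and so left out of the comparison, ZNF468 was detected on 2 control arrays, ZNF567 and ZNF613 on 2 Stau1 arrays, and ZNF580 and ZNF587 on 1 array of each group. ZNF613 had intensities of 163.2 to 269.3 and ZNF580 of 172.1 to 243.0, and both are genes with several probes.

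No zinc finger gene of chromosome 19 was called different between the groups. In limma, fitted to the 13285 detected genes, 0 of the 122 genes had an adjusted p under 0.05, against a background of 0% of all detected genes, and the lowest adjusted p was 0.999. At an unadjusted p under 0.05 there were 2 of 122 (1.64%), against a background of 3.73%. Differences of Stau1 minus control ran from -0.35 to 0.42 on the log2 scale, with a median SE of 0.16. The size of the difference exceeded the SD of the 3 control arrays in 18 of the 122 genes. With Stau1, 76 genes were above and 46 below control (62.3% above, against 49.4% of all detected genes), with a median of 0.05 against -0.00206 over all detected genes, and the median turned to -0.03 without control replicate 1. The 3 Stau1 arrays all lay above the 3 control arrays in 2 genes (1.64%, background 4.51%) and all below in 5 (4.1%, background 3.40%). An exact permutation test of 3 against 3 arrays cannot give a p below 0.1.

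The 2 genes at an unadjusted p under 0.05 had differences of opposite sign, and neither passed adjustment. ZNF460, of the ZNF264 to ZNF446 cluster, had normalized log2 levels of 6.02, 5.94 and 5.91 on control replicates 1 to 3 and of 5.63, 5.62 and 5.57 on Stau1 replicates 1 to 3. The groups did not overlap, and the arrays within each were close. Its difference was -0.35 (SE 0.13, limma unadjusted p = 0.0210, adjusted p = 0.999), and it stayed between -0.37 and -0.33 when any 1 array was left out. ZNF507, outside the clusters, had levels of 5.57, 5.92 and 5.86 on control and of 6.18, 6.49 and 5.95 on Stau1 replicates 1 to 3. Here too every Stau1 array lay above every control array, but Stau1 replicate 3 only just. The difference was 0.42 (SE 0.17, limma unadjusted p = 0.0285, adjusted p = 0.999), and 0.27 to 0.55 when any 1 array was left out. The size of these differences depended on the background correction. Without it ZNF460 was at -0.17 and ZNF507 at 0.21, and with the background inferred from all rows they were at -0.02 and 0.03. The median absolute difference over the 122 genes was 0.13 in the reported fit, 0.08 and 0.01 in these alternatives, so that the sizes given for single genes further on hold for the reported background only.

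Of the other genes with the lowest p in each direction, the groups mostly overlapped. ZNF304, known to take part in silencing of the INK4-ARF locus, was detected on 1 control array and all 3 Stau1 arrays. Its levels were 5.33, 4.96 and 5.70 on control and 5.60, 5.61 and 5.86 on Stau1 replicates 1 to 3, a difference of 0.36 (SE 0.18, limma adjusted p = 0.999) that ran from 0.17 to 0.52 with 1 array left out. ZNF653, ZNF230, ZNF235 and ZNF784 had differences of 0.26 to 0.35, each with an overlap between groups. Below control, ZNF77, which holds word 1 outside the clusters, had a difference of -0.25 (SE 0.15), ZNF566 of -0.22 and ZNF83 of -0.18. In these 3 no Stau1 array reached the lowest control, but in ZNF77 only just. Relative to its mean over 6 arrays, ZNF77 was at 0.002 on control replicate 1. On Stau1 replicates 1 to 3 it was at -0.375, -0.002 and -0.0003. ZNF563 (-0.27) and ZNF134 (-0.19, a holder of word 3) overlapped. With 1 array left out, ZNF77 ran from -0.31 to -0.13 and ZNF134 from -0.28 to -0.08. Of 37 named genes whose difference was refitted in this way, 31 moved by over 1.5 times or changed sign in at least 1 fit. The remaining genes without overlap, named because of it, were ZNF324 (0.20) and ZNF667 (-0.08).

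The study listed 275 transcripts as bound by Stau1, from immunoprecipitation in cells transfected in the same way, and 8 of the 209 genes are on that list. ZNF321 was detected on only 1 array, which leaves 7 in the comparison. None had an adjusted p under 0.05. Of the 7, 6 had a fitted difference above 0 (background 49.4%), and the median was 0.19, against 0.05 over the 122 genes. Without control replicate 1, 4 of the 7 were above 0 (background 49.3%), with a median of 0.05. ZNF529 had levels of 9.06, 9.23 and 9.39 on control and of 9.60, 9.43 and 9.23 on Stau1 replicates 1 to 3. Its ranges overlapped, since Stau1 replicate 3 was level with control replicate 2, and the difference was 0.19 (SE 0.13). ZNF562 had levels of 7.37, 7.74 and 7.89 on control and of 7.92, 7.94 and 7.82 on Stau1 arrays, a difference of 0.23 (SE 0.16), with control replicate 1 far below the other arrays. ZNF573 had a difference of 0.22 (SE 0.17), ZNF431, a repressor of the Hedgehog receptor gene PTCH1, of 0.16 (SE 0.21), and ZNF329 of 0.26 (SE 0.29). ZNF320 was at 0.01 (SE 0.15), below 0 with cyclic loess in place of quantile normalization, and ZNF121 at -0.19 (SE 0.22).

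Of 12 genes listed for a described role, 8 were detected. ZNF91, which represses SVA retrotransposons, had a difference of 0.26 (SE 0.30). ZNF274, which recruits the TRIM28 and SETDB1 machinery to zinc finger genes themselves, had a difference of -0.07 (SE 0.13). ZNF473, a component of histone mRNA 3′ end processing, had -0.09 (SE 0.14). With median scaling the values of ZNF274 and ZNF473 were above 0. ZNF350, a BRCA1 partner, had -0.06 (SE 0.16), and ZNF224, a repressor of the aldolase A gene, 0.06 (SE 0.19). ZNF175, induced in macrophages by HIV, had 0.18 (SE 0.19), and ZNF160, a repressor of the TLR4 gene, 0.11 (SE 0.15). ZNF146, which consists of zinc fingers without a KRAB domain, had 0.04 (SE 0.16), with control replicate 1 at 9.22 and its other arrays at 9.52 to 9.87. With array weights the values of ZNF175 and ZNF146 were below 0. All of these had a limma adjusted p of 0.999. ZNF85, shown above with word 1, ZNF675, another of its holders, and ZNF382 were detected on no array, and ZNF331 on 1.

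**Figure D3:**
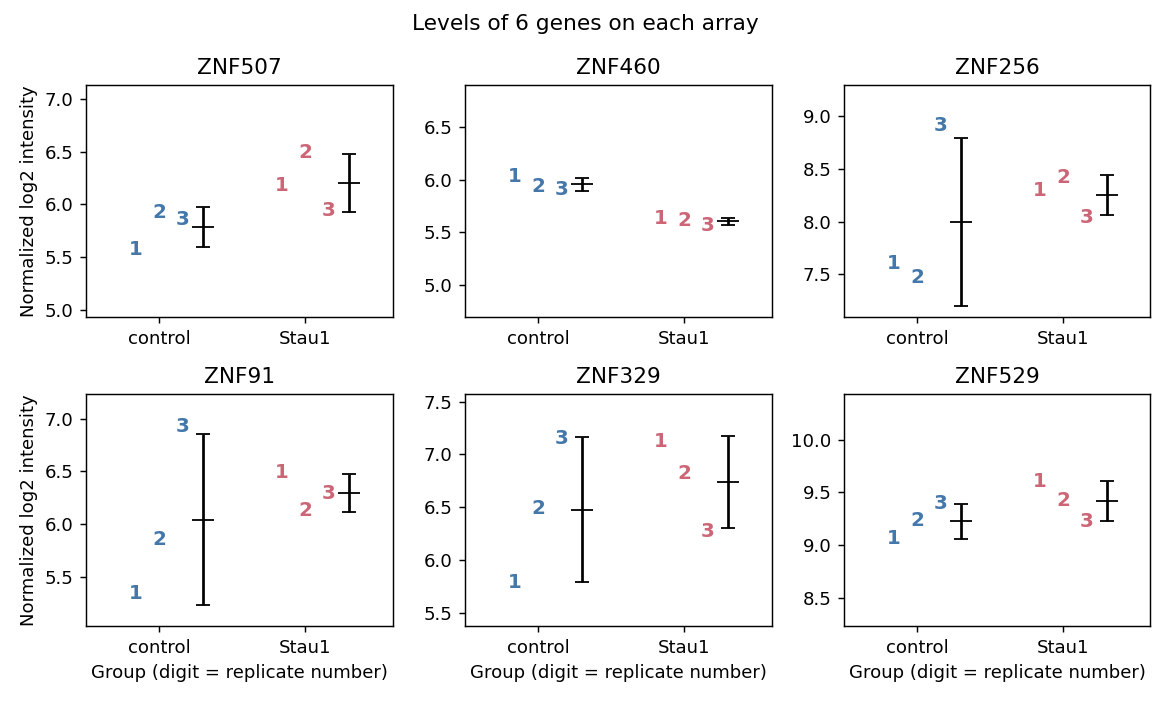
Normalized log2 intensity (y axis, all panels of equal span) of 6 genes in the control and Stau1 groups (x axis), with each array drawn as its replicate number and the mean with its SD (n = 3) beside it. ZNF507 and ZNF460 have groups that do not overlap, while in ZNF256, ZNF91 and ZNF329 control replicate 3 lies above all other arrays.

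The clearest pattern of these genes was one between the control arrays. For each gene the deviation of every array from the gene's own mean over 6 arrays was taken, and over the 122 genes its median was -0.18 on control replicate 1, -0.06 on control replicate 2 and 0.16 on control replicate 3. On Stau1 replicates 1 to 3 it was 0.04, 0.05 and -0.02. The zinc finger genes were thus lowest on 1 control array and highest on another, with the Stau1 arrays between. Over all 13285 detected genes no array's median lay further from 0 than 0.00277, and over the 4169 other detected genes whose level lay between the quartiles of the 122 it was within 0.00520. Quantile normalization gives all arrays 1 distribution of levels, so medians near 0 over such broad sets are largely set by it. The level was lower on control replicate 1 than on control replicate 3 in 98 of the 122 genes (80.3%), against 49.4% of all detected genes. Control replicate 1 was the lowest of the 6 arrays in 59 genes (48.4%, against 25.4%), and control replicate 3 the highest in 49 (40.2%, against 14.7%). The values of the genes share arrays and are not independent, so these shares carry no test.

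**Figure D4:**
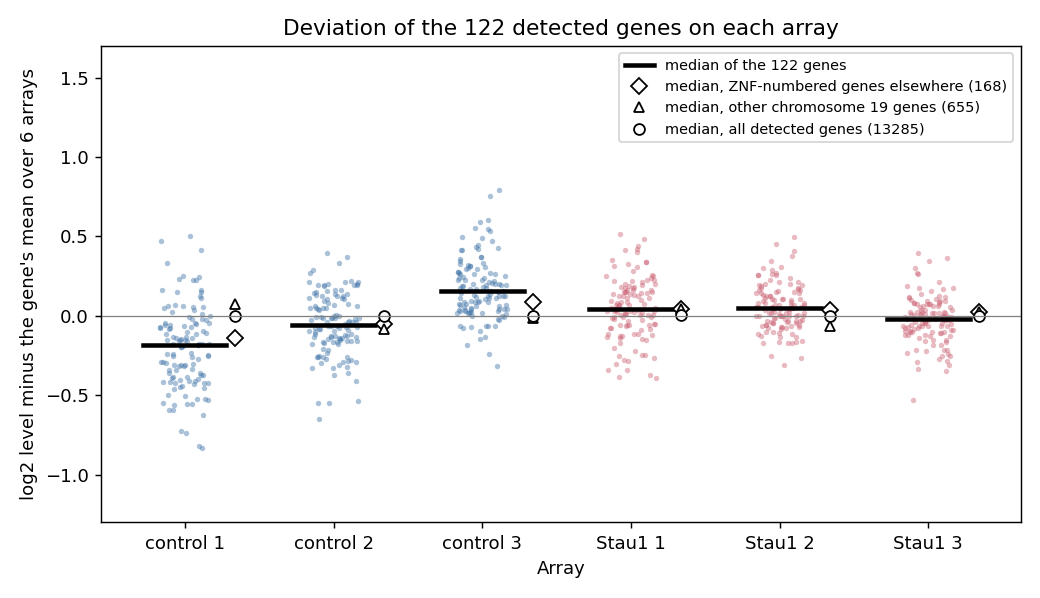
Deviation of the normalized log2 level from the gene's mean over 6 arrays (y axis) on each array (x axis) for the 122 detected genes (points) with their median (bar), and the medians of 3 other sets of genes (open symbols). The medians of the 122 genes run from -0.18 on control replicate 1 to 0.16 on control replicate 3. Those of all detected genes stay near 0, which quantile normalization largely sets.

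ZNF-numbered genes on other chromosomes had a similar profile, with medians of -0.14, -0.05 and 0.09 on control replicates 1 to 3. The other genes of chromosome 19 did not: their medians were 0.08, -0.08 and -0.01. Control replicate 3 minus control replicate 1 had a median of 0.33 over the 122 genes and 0.21 over the 168 elsewhere. Over the 655 other detected genes anywhere on chromosome 19 its median was -0.08. For the zinc finger genes of chromosome 19 it was 0.38 over the 91 detected genes with 1 probe and 0.31 over the 93 detected on all arrays. With median scaling it was 0.76, where all detected genes shifted by 0.48, and with cyclic loess 0.35. The 6 mitotic genes had a median of 0.13. Before normalization, the median intensity of the 122 genes was 134.1 on control replicate 1 and 230.8 on control replicate 3, where the estimated background means were 80.2 and 92.7 and 33.6% and 35.6% of all genes were detected. The part of array quality or background in this pattern was not tested, and no slide was named for the arrays.

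The pattern ran through nearly all clusters. Control replicate 1 lay below control replicate 3 in 10 of 10 detected genes of ZNF283 to ZNF180, 5 of 5 of ZNF302 to ZNF792, 10 of 11 of ZNF565 to ZNF573 and 22 of 28 of ZNF264 to ZNF446. In ZNF582 to ZNF835 it did in 1 of 3. Over 6 arrays, the profile of 79 of the 122 genes (64.8%) had an r above 0.5 with the median profile of the 122, which they helped to make, against 25.5% of all detected genes. The gap from control replicate 1 to control replicate 3 was widest in ZNF91, at 1.58, with levels of 5.34, 5.86 and 6.93 on control and of 6.49, 6.12 and 6.29 on Stau1 replicates 1 to 3. ZNF329 had levels of 5.79, 6.49 and 7.16 on control and of 7.12, 6.82 and 6.27 on Stau1 arrays. ZNF256 stood at 7.60, 7.48 and 8.91 on control and at 8.30, 8.42 and 8.04 on Stau1 arrays. In all 3 genes the Stau1 arrays lay between the lowest and the highest control array. ZNF426 had the opposite order, with 6.62, 6.25 and 5.80 on control replicates 1 to 3. The range within the group was wider for control than for Stau1 in 99 of the 122 genes (81.1%, against 68.2% of all detected genes).

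The comparison of the groups depended on which control array was in it. Without control replicate 3, 28 of the 122 genes (23%) had an unadjusted p under 0.05, against a background of 12.8%, and 26 of the 28 had a value above 0. Still 0 of the 122 passed adjustment, where 39 of all detected genes did (0.294%). The median difference was then 0.14 and 90 genes were above control. Without control replicate 1, 7 genes (5.74%, background 4.16%) had an unadjusted p under 0.05, all 7 of them with a value below 0, and the median was -0.03. None of the 122 passed adjustment there either (background 0%). With 2 control arrays, the spread was pooled over both groups.

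Genes with a wide control range moved with this choice, which follows from that range. ZNF256, ZNF91 and ZNF329 were named for it, so their movement is a description and no further result. ZNF256 had a difference of 0.25 (SE 0.29) with all arrays, 0.71 without control replicate 3 (limma unadjusted p = 0.000620, adjusted p = 0.0894) and 0.05 without control replicate 1. ZNF91 went from 0.26 to 0.68 (limma adjusted p = 0.156) and to -0.09. ZNF329 went from 0.26 to 0.59 and to -0.09, and ZNF431 from 0.16 to 0.43 and to 0.05. ZNF14, which holds word 1 in the same cluster as ZNF91 and ZNF431, went from 0.24 to 0.50 and to 0.03. It was detected on all 3 Stau1 arrays but on only 1 control array, replicate 3. The 0.50 thus rests on control replicates 1 and 2, where ZNF14 did not pass detection (detection p of 0.238 and 0.111). ZNF14 has several probes, whose detection p is combined. Its intensities on these 2 arrays were 883 and 1258, against estimated background means of 80.2 and 79.8. ZNF460, whose control arrays were close, differed from these genes in that it was at -0.36 without control replicate 3 and at -0.33 without control replicate 1.

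**Figure D5:**
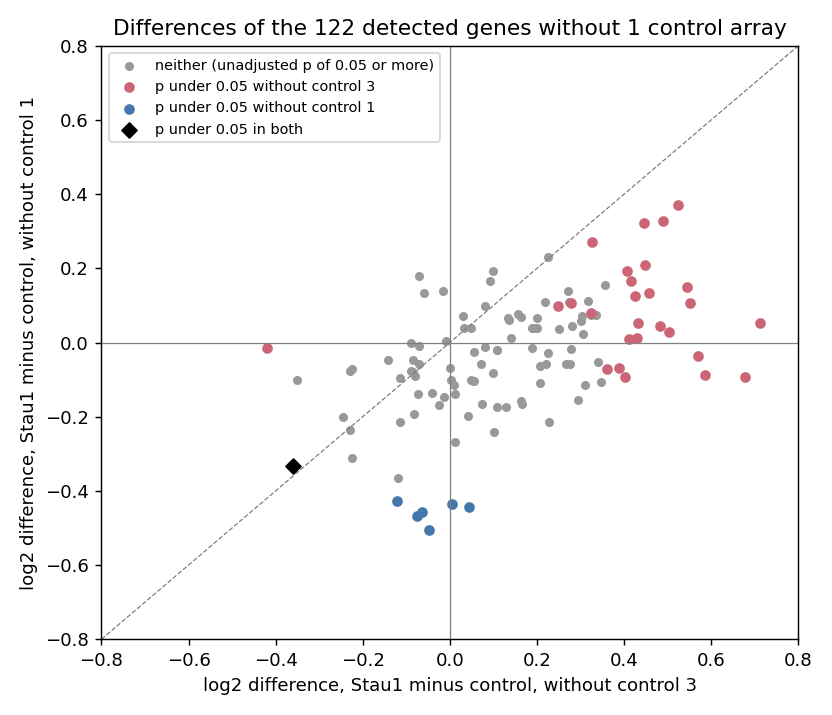
Fitted log2 difference of Stau1 minus control for the 122 detected genes without control replicate 3 (x axis) and without control replicate 1 (y axis), coloured by which fit gave an unadjusted p under 0.05; the dashed line marks equal values. Most points lie to the right of the dashed line, with 28 genes under 0.05 on the x axis, 7 on the y axis and 1, ZNF460, on both.

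By cluster, the median difference between groups ran from -0.08 (ZNF582 to ZNF835, 3 detected genes) to 0.17 (ZNF101 to ZNF254, 9 genes). In ZNF653 to ZNF791, 7 of 10 genes had a value below 0, with a median of -0.03. In ZNF101 to ZNF254, 7 of 9 were above 0. The 14 detected holders of word 1 had a median of 0.16, against 0.05 for the detected genes with a window and no word 1, the 7 holders of word 2 a median of -0.01, against 0.05, and the 12 holders of word 3 a median of 0.15, against 0.04. None of these medians was tested.

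The partners through which KRAB proteins silence their targets were read from the same fit. All 28 listed genes were matched and 22 were detected. None had an adjusted p under 0.05, 2 had an unadjusted p under 0.05 (9.09%, background 3.73%), and 14 were above and 8 below control (63.6% above, background 49.4%), with a median of 0.05. In SETDB1, CHD4, DNMT1 and SUV39H1 all Stau1 arrays lay above all control arrays (4 of 22, background 4.51%), and in no partner all below. The corepressor TRIM28 had a difference of 0.17 (SE 0.13), which was 0.04 without control replicate 2 and 0.30 without control replicate 1. The histone methyltransferase SETDB1 had a difference of 0.18 (SE 0.13), the NuRD remodeller CHD4 of 0.21 (SE 0.11) and the heterochromatin protein gene CBX5 of -0.05 (SE 0.12), a value that was above 0 with median scaling. DNMT1, the maintenance DNA methyltransferase, had levels of 12.29, 12.22 and 12.77 on control and of 12.78, 12.79 and 12.91 on Stau1 replicates 1 to 3. The groups did not overlap, but control replicate 3 lay just below the Stau1 arrays. The difference was 0.40 (SE 0.12, limma unadjusted p = 0.00646, adjusted p = 0.999), and without control replicate 3 it was 0.58 (limma adjusted p = 0.0143). It was 0.33 without control replicate 1 (limma adjusted p = 0.972) and 0.30 without control replicate 2 (limma adjusted p = 0.999). SUV39H1, another histone methyltransferase, had a difference of 0.25 (SE 0.10, limma unadjusted p = 0.0327, adjusted p = 0.999) with no overlap between groups. The median deviation of the 22 partners from their own means was -0.02 on control replicate 1 and -0.01 on control replicate 3, with no gap like that of the zinc finger genes between these arrays.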

How the data were processed

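The deposited table held, per gene and array, a signal intensity that the authors had exported from BeadStudio as a gene profile with no normalization, and a detection p-value against the negative control beads. The standard error over beads, a spread of the bead signal, was also deposited, and the mean number of beads; neither entered a test. The deposited table names no genome build and no slide, and positions and sequences were taken from RefSeq (GRCh38.p14).

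In R 4.3.3, limma 3.58.1 was used for normexp background correction (offset 16), quantile normalization and the log2 scale. Background parameters came from the detection p-values of genes with 1 probe, recognised by whole bead counts and detection p in steps of 1 in 759. Genes detected (p under 0.05) on 3 or more arrays were compared by lmFit and eBayes with a variance trend, and p-values were adjusted by Benjamini-Hochberg over all of them. The fit was tested on simulated data.

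The members and gene lists were chosen with earlier results of these data known. Named were the 6 detected genes with the lowest p per direction, genes on the study's bound list, 12 with a described role, up to 5 detected on exactly 3 and on exactly 2 arrays, the 3 with the widest range within a group, and KRAB partners (TRIM28, SETDB1, CBX5 and any at an unadjusted p under 0.05). CHD4, ZNF14, ZNF324, ZNF426 and ZNF667 were named after their values were seen. The allowed gap within clusters, the word length and the smallest shares of holders (10% for word 1, 5% for words 2 and 3) were also set after looking at the data, and the word search was not tested. Alternatives were other backgrounds, offsets, normalizations and filters, array weights, no variance trend, the methods' t-test, a replicate block and omission of single arrays.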

Additional observations from a re-analysis of the deposited data

How the results depend on the processing

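With all 6 arrays and with any 1 left out, 0 of the detected genes of the set passed adjustment in limma under every setting run, and the methods' t-test gave 0 after adjustment and 2 at an unadjusted p under 0.05. That unadjusted count was 1 with median scaling (0.82%, against 1.72% of all genes tested), 6 of 209 with no filter (2.87%, against 4.13%), 1 of 61 where all arrays had to be under a detection p of 0.01 (1.64%, against 3.63%) and 10 with array weights (8.2%, against 9.76%). With 1 array left out it was 2 to 28, the highest without control replicate 3 (23%, against 12.8%). Genes without overlap numbered 3 with median scaling (2.46%, against 3.81%) and 3 with the stricter filter (4.92%, against 7.56%). With 1 array left out they numbered 11 to 44, from 9.02% without control replicate 2 (against 14.1%) or Stau1 replicate 2 (against 17.7%) to 36.1% without control replicate 3 (against 29.1%). The median difference was 0.00630 with the background inferred from all rows and 0.123 with median scaling, where that of all detected genes was 0.0679, and with 1 array left out it lay between -0.0264 (without control replicate 1) and 0.138. At a detection p under 0.01, 81 genes were detected on at least 3 arrays. The counts of overlap and the profile of the controls under other scalings were added after seeing the data; the gap between control replicates 3 and 1 was 0.759 with median scaling.

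Some named genes changed direction. ZNF320 was at -0.0072 with cyclic loess; ZNF274 at 0.0092, ZNF473 at 0.0009 and CBX5 at 0.0520 with median scaling; and ZNF329 at -0.0132, ZNF175 at -0.0123 and ZNF146 at -0.1047 with array weights. With 1 array left out, values ran from -0.0871 to 0.5863 for ZNF329, -0.0781 to 0.0812 for ZNF320, -0.0936 to 0.6786 for ZNF91, -0.0891 to 0.2774 for ZNF224, -0.0573 to 0.3177 for ZNF175, -0.1588 to 0.1639 for ZNF146, -0.1511 to 0.0546 for ZNF350, -0.1470 to 0.0822 for ZNF527, -0.0068 to 0.7122 for ZNF256, -0.1130 to 0.0095 for ZNF274 and -0.0986 to 0.0479 for CBX5. None of these was called, and the cause was not tested. Of the named genes, DNMT1 passed without control replicate 3 alone.

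The deviations of same-numbered arrays had an r of 0.0154, 0.260 and -0.139, in order of replicate number. The labels do not say whether the replicate number pairs the arrays, and so few correlations cannot decide it. With the number as a replicate block, 0 genes passed adjustment and 3 had an unadjusted p under 0.05, with a median of 0.0509. A slide block was not run, since no slide is named. The precision is limited by the number of arrays and by intensities near background, and a difference of the size seen between control arrays could not be told from one between groups.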
